A study of Equus caballus with 6 samples.

Results

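The genes measured here were the ATP synthase assembly factors ATPAF1, ATPAF2, FMC1 and TMEM70, and the ATP synthase inhibitor ATP5IF1. They are 5 of the 18278 genes that the arrays read with a probe of 1 gene symbol. They were taken as every spot that the platform annotation gives to exactly 1 of these symbols, which found 6 probes, 2 of ATPAF1 and 1 of each other gene. ATPAF1 was chosen by its measured values, because 1 of its probes was the only one of 24590 tested probes past limma's adjusted p of 0.05 between the treatments. With all 6 arrays kept, that count was 0 under robust eBayes with a trend, and 0 under plain background subtraction. It was also 0 without control replicate 1 or 3, where the log2 difference of the probe was 3.00 and 3.06, against 3.04 with all arrays. Since its values chose it, ATPAF1 is described with no test. The other 4 genes were added for their function. The treated group was 3 adult stallions given 0.1 mg/kg dexamethasone, a synthetic glucocorticoid, into a vein. The control group was 3 adult stallions given the same volume of saline. All 6 had 10 days to settle in, and testes were taken 12 h after the injection. RNA of minced testicular parenchyma from each stallion went on 1 human CodeLink array with a single dye, so the probes carry human sequence and the RNA is from the horse. Low signal on a human probe does not show low expression in the horse.

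Mitochondrial ATP synthase makes ATP with a catalytic F1 head of alternating alpha and beta subunits and a membrane part, Fo, whose ring of c subunits turns as protons pass. Dedicated chaperones hold the subunits until the head and the ring can join. The counterpart of ATPAF1 in yeast, Atp11, binds the free beta subunit, and that of ATPAF2, Atp12, binds the free alpha subunit. FMC1 is known from yeast as a partner that the Atp12 step needs at high temperature. TMEM70 is a protein of the inner membrane that helps incorporate the c subunits. ATP5IF1 is not a chaperone but an inhibitor of ATP hydrolysis by the finished enzyme. In the testis, mitochondrial ATP production serves spermatocytes and the steroid-producing Leydig cells among others.

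On each array 22690 to 25537 of 53423 gene probes were above background, that is, 42.5% to 47.8%. The median spot reached 72.6 to 79.4 intensity units over a median local background of 47 to 50. In the testis, markers of Leydig, Sertoli and germ cells were above background on all 6 arrays, among them LHCGR, AMH, DAZL and ACRV1, while the probes of NR5A1, SOX9, PRM2 and TNP1 were not above background on any array. Leydig markers, summed over 7 genes, came to 188 to 234 scaled units in dexamethasone stallions and 243 to 278 in controls, which do not overlap. The summed ranges of the other 9 marker lists overlapped. Among single tested probes, the groups did not overlap for 9.27% on the normalised scale. In the deposited scaled values, which were summed here, the median log2 difference of all tested probes was -0.07. Most of the Leydig sum came from LHCGR, at 155 to 196 scaled units over the 6 arrays, and INSL3, at 12.6 to 61.5. Within that list INSL3 differed by -1.21 on the log2 scale, and the other tested markers by -0.17 to 0.08. The part of this difference in the results below was not tested. In these whole-tissue samples fewer cells of a type and less RNA per cell cannot be told apart. The small number of arrays limits the precision, and for a single value the smallest p that an exact permutation test (two-sided, n = 3 each) allows is 0.1.

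ATPAF1, the beta-subunit chaperone, was read as bright by its probe GE564959 in every dexamethasone stallion and as nearly dark in every control. This probe is annotated to a reference mRNA of the gene. Its background-subtracted intensity was 441, 987 and 503 in the 3 dexamethasone stallions, and 30.5, 36.0 and 31.4 in the 3 controls. The groups were far apart, and the second dexamethasone stallion lay well above the other two. On the deposited scale, intensity over 1 constant per array, the probe was at 15.5, 40.7 and 21.02 in dexamethasone stallions and at 0.988, 1.32 and 1.26 in controls. The group means on that scale were 25.7 ± 13.2 and 1.19 ± 0.18 (SD, n = 3 each), and the lowest treated value was 11.7 times the highest control value. Within the arrays, the spot stood at the 90.5th, 96.1st and 91.8th percentile of usable gene probes in dexamethasone stallions, against the 50.1st, 55.2nd and 54.2nd in controls. The control spots thus sat near the middle of each array.

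After normexp correction and quantile normalisation, GE564959 averaged 9.45 ± 0.64 in dexamethasone stallions and 6.40 ± 0.08 in controls on the log2 scale (SD, n = 3 each). The difference was 3.04 ± 0.25 (SE). That SE is limma's moderated one, which draws on the variance of all tested probes, so the SDs describe the spread of this probe. A gap of 2.51 separated the lowest dexamethasone value, 8.97, from the highest control value, 6.47. Dexamethasone arrays held it above background in 3 of 3 cases, control arrays in 1 of 3. With control spots this close to background the size depends on the correction, and it was 4.36 with plain background subtraction and 4.32 on the deposited scale.

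**Figure D1:**
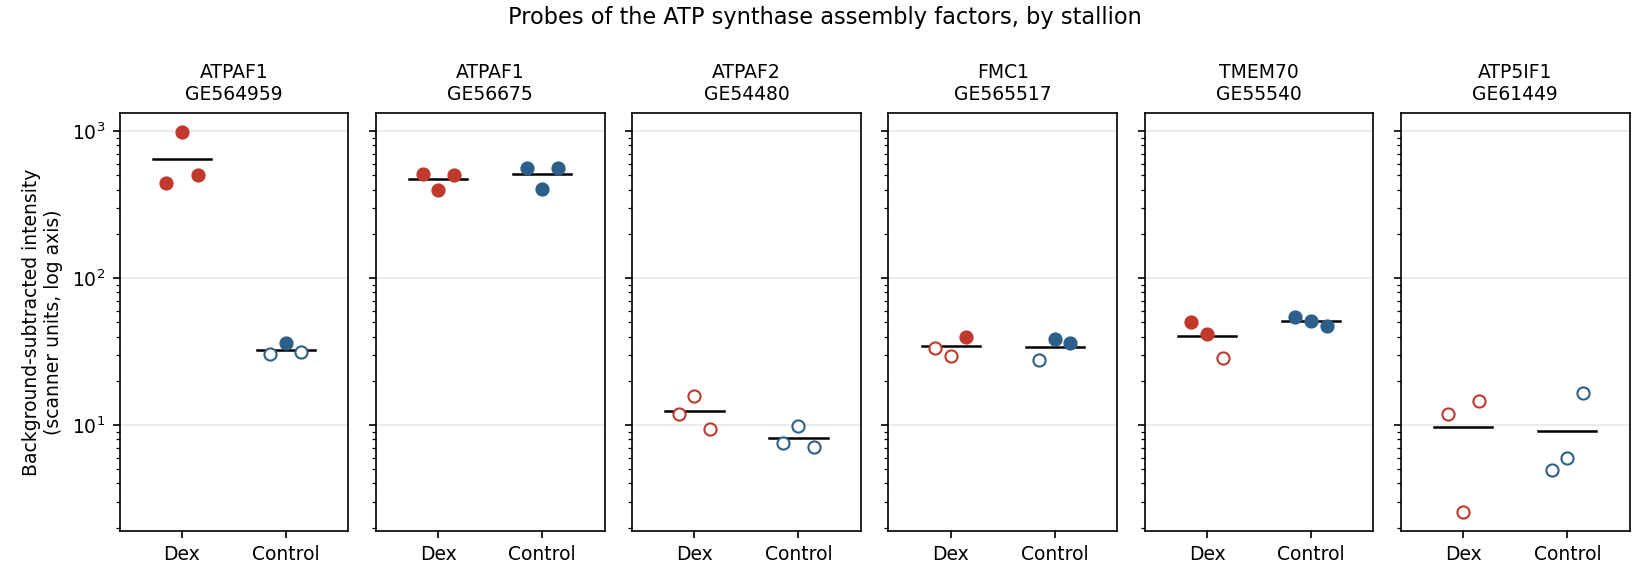
Background-subtracted intensity (scanner units, log axis) of the 6 member probes in each stallion, with 3 dexamethasone stallions on the left (red) and 3 controls on the right (blue) of each panel. Filled points were above background, open points were not, and lines are group means. GE564959 of ATPAF1 lies at 441 to 987 in dexamethasone stallions and at 30.5 to 36.0 in controls, and in the other 5 panels the 2 groups overlap. Levels of different probes are not comparable.

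The spots of GE564959 themselves carried the flag G in every dexamethasone stallion, a flag that went with a signal strength of 1 or more on each array. The scanner's signal strength, the spot mean over the noise level of the spot, was 5.89, 13.7 and 6.00 in dexamethasone stallions and 0.994, 1.09 and 0.978 in controls, where a value of 1 marks the edge of background. Local background was 52, 44 and 53 units under the dexamethasone spots and 54, 48 and 49 units under the control spots, so the background of the 2 groups overlapped. The recognised spot covered 82, 92 and 110 pixels in dexamethasone stallions and 41, 45 and 48 pixels in controls. The median pixel of the spot, at 550, 1139 and 567 against 85, 80 and 83, showed the same contrast as the mean.

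The 8 spots that surround GE564959 on the array were not bright in the dexamethasone arrays. They ranged from -1.59 to 101 background-subtracted units in dexamethasone stallions and from -3.97 to 128 in controls. Of these spots 6 are gene probes, and their log2 differences ran from -0.17 to 0.09 with a median of -0.05. The positions were read from the spot identifiers as row and column. Under that reading, local background correlated between spots in neighbouring columns at 0.18 to 0.62 over the 6 arrays. These correlations are a description over spots of 1 array each. Rows and distant spots were not compared, so they cannot settle the reading.

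**Figure D2:**
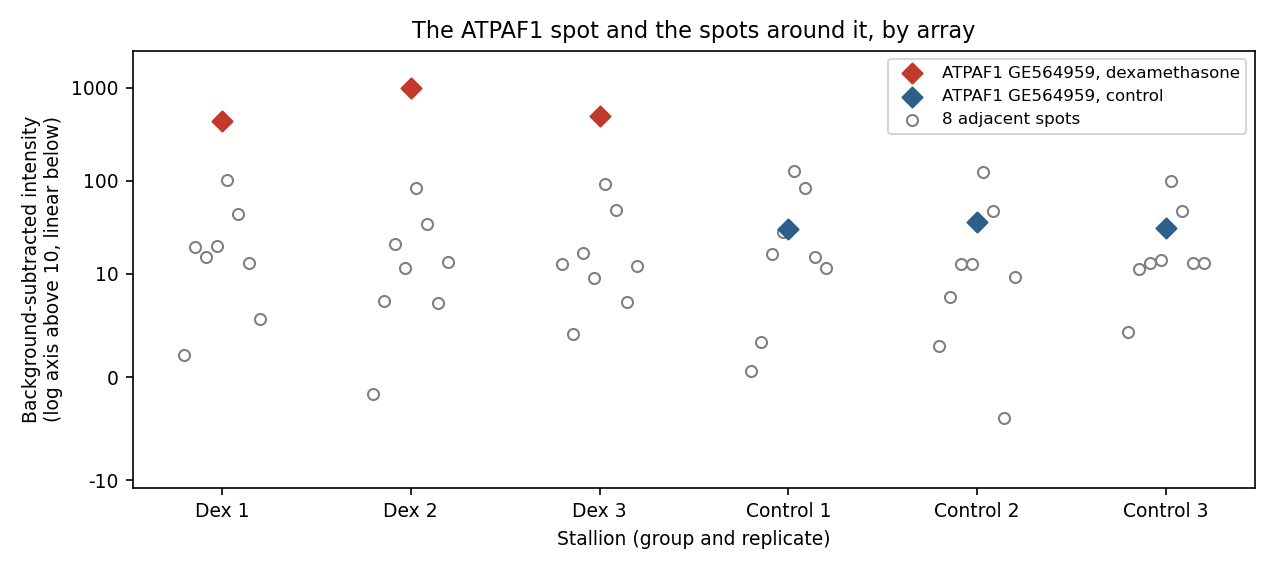
Background-subtracted intensity of the ATPAF1 spot GE564959 (diamonds, red for dexamethasone and blue for control) and of the 8 spots around it (open circles) on each of the 6 arrays, on an axis that is logarithmic above 10 and linear below. In the dexamethasone arrays the ATPAF1 spot, at 441 to 987, lies above all of its neighbours, which reach 101, and in the control arrays it lies among them.

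The other ATPAF1 probe, GE56675, did not show this contrast. It is annotated to an expressed sequence tag of the gene and was above background on all 6 arrays. Its background-subtracted intensity was 511, 395 and 501 in dexamethasone stallions and 560, 402 and 563 in controls. The groups overlapped, and the lowest stallion of each group stood close to the other group's lowest. On the normalised log2 scale it averaged 9.11 ± 0.12 in dexamethasone stallions and 9.03 ± 0.26 in controls (SD, n = 3 each), a difference of 0.08 ± 0.13 (SE) with a 95% interval from -0.22 to 0.37. The sign turned with median scaling, at -0.05, and without control replicate 2, at -0.05. Taken by run of slides, the difference was 0.17 in the first and -0.11 in the second. Around GE56675 the gene probes in the 8 adjacent spots had log2 differences from -0.05 to 0.55, with a median of 0.01. The highest, GE620970, read 120 units in dexamethasone replicate 2, against 23.7 and 14.4 in the other dexamethasone stallions. TRAPPC3L read 52.2 on that array, against 9.43 and -4.27. The adjacent probes of LINC01679, PROX1 and EPHX4 were also highest there among the dexamethasone arrays, while that of VSTM4 was lowest. Those of GE61988 and CLEC16A had no usable value on that array. Whether the surroundings affected the reading of GE56675 was not tested.

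Both probes carry the symbol ATPAF1, and their differences lay 2.97 apart on the log2 scale. Among the 1340 genes with at least 2 tested probes, the median distance between the highest and the lowest probe was 0.12 and the 95th percentile was 0.36. ATPAF1 had the widest distance of these genes, ahead of a second at 1.08. Because ATPAF1 was picked on the difference of GE564959, this rank is a description. Which sequence of the horse transcript each probe matches was not examined, as no probe sequence was used here, and total ATPAF1 mRNA cannot be given a direction from probes that differ in this way.

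Steps of this size between arrays were rare, and most did not follow the treatment. Of the 22332 tested probes with 6 values, 10 spanned at least 3 log2 units over the 6 stallions, where the median span was 0.31. GE564959 spanned 3.86 and ranked sixth among them. It was the only one of the 10 whose groups did not overlap, while over all 24590 tested probes the groups did not overlap for 9.27%. TSNAXIP1, for example, stood at 10.14, 10.11 and 6.13 in dexamethasone stallions and at 9.90, 6.18 and 9.04 in controls. CLASRP stood at 8.76, 9.09 and 6.15 in dexamethasone stallions and at 8.70, 8.95 and 6.01 in controls. Its 2 low arrays, dexamethasone replicate 3 and control replicate 3, make up the second run of slides. For CLASRP, animal and run cannot be told apart. In both genes 1 dexamethasone stallion and 1 control were near background while the others were bright. EIF4EBP1 was low in 1 stallion, control replicate 3, with both of its probes, at 8.51 and 8.89, while the other 5 stallions lay between 12.12 and 13.08. A gap between groups of at least 1 log2 unit occurred for 1 probe with 6 values, that of ATPAF1, and the next widest was 0.63 for INSL3, a Leydig cell hormone that was lower in dexamethasone stallions. These genes were picked out after their values were seen. Because GE564959 was picked on its difference between the groups, its gap and its place among the 10 are a description.

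**Figure D3:**
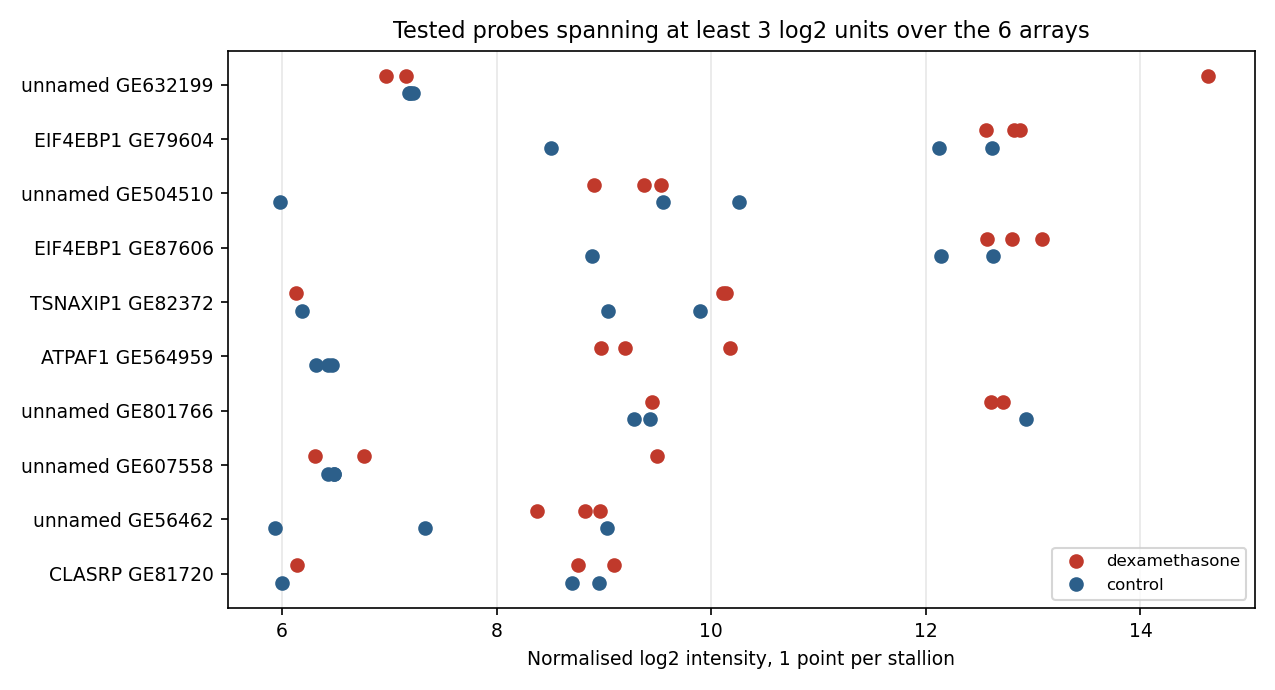
Normalised log2 intensity of the 10 tested probes that span at least 3 log2 units over the 6 arrays, with 1 point per stallion, dexamethasone (red) above control (blue) in each row. Only for ATPAF1 GE564959 do the 3 dexamethasone points, from 8.97 to 10.18, all lie to 1 side of the 3 control points, from 6.31 to 6.47. Probes with no single symbol are written as unnamed.

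Of the remaining member genes, TMEM70 and FMC1 could be tested and neither passed. Over all 24590 tested probes limma's adjusted p called 0.00407% higher, which is the ATPAF1 probe itself, and 0% lower. TMEM70 and FMC1 each had an adjusted p of 0.999, and none of the 2 was under an unadjusted p of 0.05, as 3.29% of all tested probes were.

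TMEM70, the factor for the c subunits, had background-subtracted intensities of 50.1, 41.5 and 28.6 in dexamethasone stallions and 53.9, 51.1 and 47.0 in controls. The groups overlapped, and the third dexamethasone stallion was the lowest and the only one not above background. On the log2 scale the probe averaged 6.56 ± 0.13 in dexamethasone stallions and 6.67 ± 0.03 in controls (SD, n = 3 each). The difference was -0.10 ± 0.09 (SE), with a 95% interval from -0.31 to 0.10, and it was -0.03 without dexamethasone replicate 3.

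FMC1, the partner of the alpha-subunit step in yeast, had intensities of 33.5, 29.5 and 39.6 in dexamethasone stallions and 27.9, 38.5 and 36.2 in controls. These ranges overlapped almost wholly. Of the dexamethasone spots 1 of 3 was above background, and of the control spots 2 of 3. The probe averaged 6.48 ± 0.11 in dexamethasone stallions and 6.43 ± 0.13 in controls on the log2 scale (SD, n = 3 each). The difference was 0.04 ± 0.10 (SE), with a 95% interval from -0.18 to 0.27, and it turned to -0.03 without control replicate 1 and to -0.02 without dexamethasone replicate 3. A further probe, GE609540, is annotated to both LUC7L2 and the FMC1-LUC7L2 readthrough transcript, so it was not counted as FMC1, and it was above background on 0 arrays.

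ATPAF2, the alpha-subunit chaperone, was above background on 0 of 6 arrays and was not tested. Its intensities were 12.0, 15.8 and 9.34 in dexamethasone stallions and 7.55, 9.89 and 7.07 in controls. The lowest dexamethasone value lay just under the highest control value, so the groups overlapped slightly on this scale. On the deposited scale they did not, with 0.391 as the lowest dexamethasone value and 0.364 as the highest control value, all of them from spots within background. Fitted with no filter on dim probes, its log2 difference was 0.10 ± 0.09 (SE), with means of 6.04 in dexamethasone stallions and 5.94 in controls.

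ATP5IF1, the hydrolysis inhibitor, was likewise above background on 0 of 6 arrays. Its intensities were 11.8, 2.57 and 14.6 in dexamethasone stallions and 4.90, 5.94 and 16.6 in controls, with wide overlap. Its log2 difference with no filter was 0.02 ± 0.11 (SE), with means of 5.97 in dexamethasone stallions and 5.96 in controls. With both probes within background in every stallion, a fall of either transcript or a small rise could not have been seen.

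The genes that work beside the assembly factors were taken from 4 lists, and none of their tested members passed limma's adjusted p in either direction, against 0.00407% higher and 0% lower of all tested probes. The subunits of the ATP synthase were represented by 11 tested genes of 20 listed, of which 2 lay higher and 9 lower. Of all 24590 tested probes, 11679 lay higher and 12911 lower. The median log2 difference of the subunits was -0.08, against -0.01 over all tested probes. Without each array in turn it was -0.14 to -0.03. With the deposited values it was -0.16, where the median of all tested probes was itself -0.07, and with median scaling -0.14, against -0.07 over all. ATP5F1E, the epsilon subunit of the F1 head, averaged 13.30 ± 0.06 in dexamethasone stallions and 13.46 ± 0.03 in controls (log2, SD, n = 3 each). It differed by -0.16 ± 0.08 (SE), and its groups did not overlap, which held for 1 of the 11 and for 9.27% of all tested probes. ATP5MC3, a gene of the c subunit, differed by -0.16 ± 0.09, and ATP5PF, coupling factor 6 of the stalk, by -0.11 ± 0.10 (SE), both with groups that overlapped. An unadjusted p under 0.05 was found for 0 of the 11, against 3.29% of all tested probes.

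Assembly factors of respiratory complexes I to IV were represented by 23 tested genes of 48 listed, with 13 higher and 10 lower and a median of 0.01. COX17, a copper chaperone for cytochrome oxidase, differed by 0.27 ± 0.08 (SE) and was the 1 of 23 under an unadjusted p of 0.05, against 3.29% of all tested probes. It averaged 6.59 ± 0.02 in dexamethasone stallions and 6.32 ± 0.06 in controls (SD, n = 3 each), with 3 of 3 dexamethasone spots and 1 of 3 control spots above background. COX17 thus met the filter of 3 of 6 arrays through the group where it was higher. Its p and the separation of its groups are therefore a description. Its adjusted p was 0.999. BCS1L, the assembly ATPase of complex III, differed by -0.19 ± 0.09, and SDHAF4, of complex II, by -0.25 ± 0.14 (SE). The groups of COX17 and BCS1L did not overlap, which are the 2 of 23 that did not, close to the 9.27% of all tested probes.

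Carriers and porins that move ADP, ATP and phosphate were represented by 5 tested genes of 8, with 2 higher and 3 lower and a median of -0.01. SLC25A4, an ADP/ATP carrier, differed by 0.18 ± 0.11, VDAC2, a porin of the outer membrane, by -0.08 ± 0.09, and SLC25A3, the phosphate carrier, by -0.08 ± 0.11 (log2, SE). Of 14 genes that shape the cristae, where ATP synthase dimers sit, 7 were tested, with 2 higher and 5 lower and a median of -0.05. TMEM11, an inner membrane protein, differed by 0.23 ± 0.10 and was the 1 of 7 with an unadjusted p under 0.05, against 3.29% of all tested probes. Its groups did not overlap, which held for 1 of the 7 and for 9.27% of all tested probes. It was above background in 3 dexamethasone stallions and 2 controls. OPA1, the inner membrane fusion GTPase, differed by -0.15 ± 0.12, and PHB1, a prohibitin, by -0.10 ± 0.09 (SE). The adjusted p of each of these genes was 0.999.

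**Figure D4:**
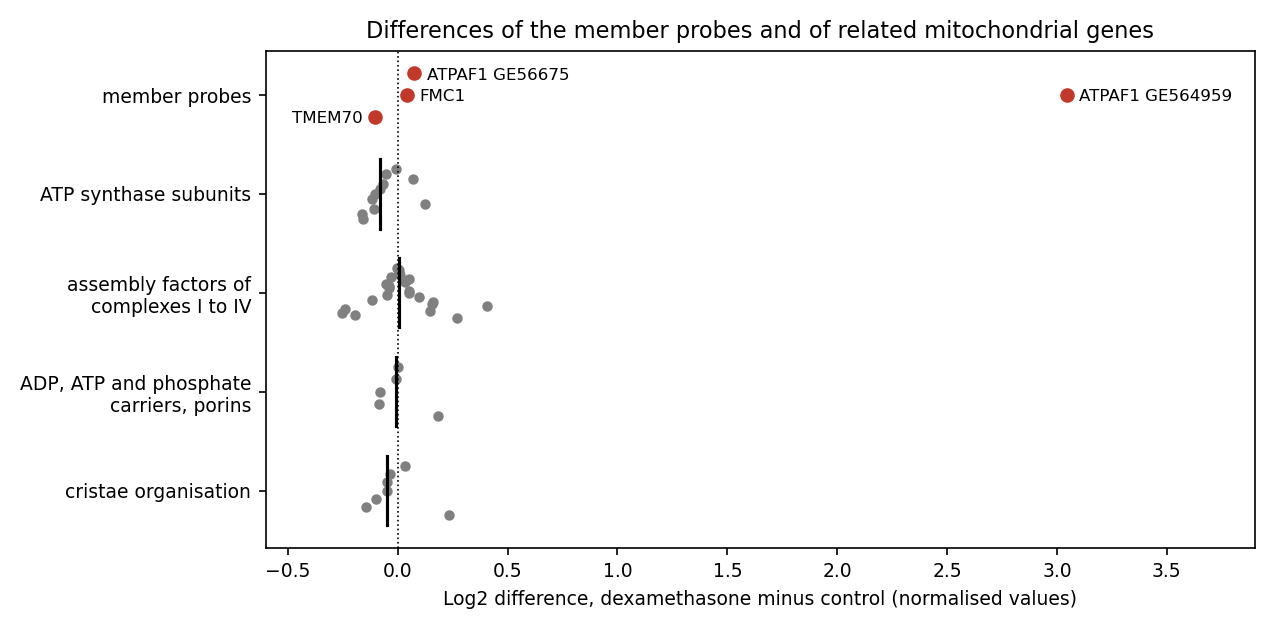
Log2 difference, dexamethasone minus control, of the 4 tested member probes (red) and of the tested genes of 4 related lists (grey), 1 point per probe or gene, with the median of each list as a black line. The ATPAF1 probe GE564959 stands at 3.04, while the other 3 member probes lie between -0.10 and 0.08 and the list genes between -0.25 and 0.41.

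By their pattern over the 6 stallions, 5 genes were most like GE564959 among 192 probes with 1 symbol, 6 values and a span of at least 1 log2 unit. KRT28, a keratin, correlated with it at Pearson's r = 0.95, FTMT, mitochondrial ferritin, at 0.95, ANKRD13C at 0.87, SPMIP10 at 0.81 and ENOX1 at 0.79. These are correlations over 6 arrays ranked from many, they share the arrays and the treatment groups, and they are given as a description. KRT28 stood at 11.20, 12.05 and 11.29 in dexamethasone stallions and at 10.32, 10.70 and 10.57 in controls. FTMT stood at 11.33, 11.90 and 11.34 in dexamethasone stallions and at 10.87, 10.96 and 10.95 in controls. In both genes, as in the ATPAF1 probe, dexamethasone replicate 2 was the highest of the 6. Their log2 differences, 0.98 ± 0.20 for KRT28 and 0.60 ± 0.14 for FTMT (SE), were smaller than that of GE564959, and their adjusted p was 0.999.

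The genes that flank the 5 members in the horse genome gave no call in either direction. By RefSeq's gene order for the horse (TB-T2T), ATPAF1 lies between TEX38 and MOB3C, with EFCAB14 and MKNK1 next to these. EFCAB14 differed by -0.17 ± 0.12, MOB3C by 0.07 ± 0.09 and MKNK1, a kinase of the translation factor eIF4E, by 0.02 ± 0.08 (log2, SE), and TEX38 was not tested. Over the 20 protein-coding neighbours of the 5 members, up to 2 on each side, 13 had a tested probe. Their differences ran from -0.17 to 0.09. Of the 13, 0 passed limma's adjusted p, against 0.00407% higher and 0% lower of all tested probes. The lowest adjusted p of the 13 was 0.999.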

How the data were processed

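The authors deposited 6 scanner tables, 1 array per stallion, with the mean intensity of each spot, the median of its local background and a flag for its quality. Their deposited scaled intensity is the background-subtracted intensity over 1 constant per array, and the deposited signal strength is a score, the spot mean over the noise level; both were read from the values. Labelling followed the manual CodeLink protocol, per the labels' protocols, and no scanner software is named there. The table of the whole series repeats the scaled intensities.

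On each array 353 to 610 spots with flag M held no value, and 320 to 1189 with flag C, I or P were set to missing. Normexp (offset 50) was run on spot means with background medians, followed by quantile normalisation and log2, in limma 3.58.1 (R 4.3.3). Figures were drawn with matplotlib 3.10.9. Testing needed a probe above background (no flag L) on at least 3 of 6 arrays with at least 2 values per group. limma's lmFit and eBayes were used without covariates, two-sided, adjusted by Benjamini-Hochberg over all 24590 tested probes. SE and 95% intervals are limma's moderated ones. For lists the brightest probe stood for a gene. Named list genes are the 3 with the smallest p. Nothing in the labels says how the stallions are related beyond their being separate animals. File names give slide numbers in 2 runs, of 4 and 2 arrays, each with both groups. The alternatives were another offset, background subtraction, median scaling, cyclic loess, the deposited values with a floor of 0.1, other filters, flagged spots kept, the run as a block, trend and robust eBayes, and each array left out. Members and lists were chosen with earlier results of these data known. The comparisons of spans over arrays and of probes of 1 gene were added after the data were seen. Symbols come from the platform annotation, and gene order from RefSeq's TB-T2T table, in which all 5 members are listed.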

Additional observations from a re-analysis of the deposited data

How the results depend on the processing

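The log2 difference of the ATPAF1 probe GE564959 was 2.99 with median scaling, 3.08 with cyclic loess, 3.19 and 2.76 within the 2 runs of slides and 2.68 to 3.28 without each array in turn. It was 3.71 with an offset of 16, 4.36 with background subtraction and 4.32 with the deposited values. Probes past limma's adjusted p over all tested numbered 1, and 0 with background subtraction, with trend and robust eBayes and with the filter of all 6 arrays, which leaves GE564959 untested. Without each array in turn they numbered 0 to 3, namely 0 without control replicate 1 or 3, 2 without dexamethasone replicate 1 and 3 without control replicate 2. The run as a block was fitted on the 22332 probes with 6 values and left 1. None of the probes of the other members passed in any of the 16 alternatives, but not all were tested in each. ATPAF2 and ATP5IF1 were tested only with no filter. TMEM70 and FMC1 were not tested with the filter of all 6 arrays. GE56675 ranged from -0.11 to 0.21, TMEM70 from -0.26 to -0.03 and FMC1 from -0.03 to 0.12, with FMC1 at -0.033 to 0.084 without each array in turn. The cause of these movements was not tested. No paired analysis was possible because the labels give no numbers shared between the groups. FMC1, ATPAF2 and ATP5IF1 lie close to or within background, which limits what can be seen of them.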
